A study of Mus musculus with 22 samples.

Results

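Mitochondria in mouse testes are shaped by a small set of genes that fuse the organelles or divide them, and 8 of these genes were followed in the RNA of testes with and without the transcription factor MLX. They were taken by symbol, by a rule that uses no value but was set with earlier results of these data known: *Mfn1*, *Mfn2*, *Opa1*, *Oma1*, *Yme1l1*, *Dnm1l*, *Mff* and *Fis1*, which are 8 of the 17931 gene symbols in the count table. RNA from whole testes of 3 wild-type (WT) and 3 *Mlx* knockout (MLX KO) males aged 7 months was sequenced, 1 library per male, in 3 numbered pairs of littermates. MLX KO males carried a constitutive homozygous deletion of the *Mlx* exons that encode the region for dimerization and DNA binding, made in 129S4 embryonic stem cells, with *Meox2*-Cre used to remove the floxed exons and then crossed out. The WT males, unlike the MLX KO males, had been tested as fertile breeders, so breeding history and genotype cannot be told apart. The *Mlx* count, taken over the whole gene, does not check the genotype labels.

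As background, the mitofusins MFN1 and MFN2 are GTPases that fuse the outer mitochondrial membrane, and the dynamin-like GTPase OPA1 fuses the inner one. OPA1 is cut by the inner membrane proteases OMA1 and YME1L1, and the balance of its long and short forms sets how readily inner membranes fuse. Division is carried out by DRP1, the product of *Dnm1l*, which is recruited from the cytosol to the outer membrane by adaptors such as MFF, while FIS1 is an outer membrane protein with a part in fission and organelle quality control. Male germ cells are known for extensive rearrangement of their mitochondria, which are small and dispersed in many stages and are finally wound as a sheath around the sperm midpiece.

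The libraries held between 16674678 and 19742726 counts, and 14640 genes passed the filter on low counts and were tested by the quasi-likelihood method of edgeR, adjusted over all of them after Benjamini and Hochberg. Values are given as reads counted on the gene and as CPM, the count scaled to a common library size with the TMM factor of the library. The log2 fold change (LFC) is always MLX KO against WT, and its 95% interval is that of the single gene, without adjustment. MLX KO testes differed widely from WT testes: 45.4% of all genes tested passed an adjusted p of 0.05, 24.8% being higher and 20.6% lower in MLX KO. Against that background, all 8 fusion and fission genes were tested, 2 were called, *Mfn2* and *Mff*, both lower in MLX KO, and 0 were called higher. The CPM values of the genotypes did not overlap for 6 of the 8 genes, where 56.2% of all genes tested show no overlap. Wherever the genotypes do not overlap, 3 of 3 pairs move the same way whatever the pairing, so the pair count adds nothing there. The median LFC of the 8 genes was -0.07, against 0.03 for all genes tested. With TMM, 6 of the 8 lay below 0, among them *Opa1* at -0.000103, and all but *Oma1* lay within 0.21 of 0. Scaling by library size alone left only *Mfn2* and *Mff* below 0. Among the libraries, KO1 stood apart from KO2 and KO3: the chi-square of their counts over its degrees of freedom was 8.26 and 8.25, against 2.73 between KO2 and KO3. Without KO1, 3 of the 8 genes were called lower: *Mfn2* (LFC -0.25, adjusted p = 0.000121), *Mff* (-0.20, adjusted p = 0.00107) and *Yme1l1* (-0.11, adjusted p = 0.0393).

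RNA of cell type markers differed between the genotypes along with these values. Summed over the marker list, elongating spermatid genes took 24200 to 25200 CPM in the WT libraries and 14400 to 17600 in the MLX KO libraries, and 13 of 13 were called lower. Round spermatid markers held 2790 to 2860 CPM in the WT and 2240 to 2460 in the MLX KO libraries, with 10 of 10 lower, and spermatocyte markers held 1890 to 1950 and 1660 to 1740, with 8 of 12 lower. With library size alone, which called 8.66% of all genes lower and 36.5% higher, 13 of 13 elongating spermatid, 6 of 10 round spermatid and 1 of 12 spermatocyte markers were lower. Markers of several somatic cell types took a larger part of the MLX KO libraries. Leydig cell markers held 901 to 924 CPM in WT and 1910 to 2530 in MLX KO, with 9 of 9 higher; Sertoli cell markers held 550 to 563 and 765 to 915, with 10 of 10 higher; macrophage markers held 102 to 108 and 226 to 240, with 9 of 9 higher, and library size alone gave the same counts for these 3 lists. Spermatogonial markers, at 173 to 180 and 187 to 201 CPM, had 2 of 10 called higher and 1 lower, endothelial markers, at 36.5 to 45.6 and 52.6 to 59.1, had 2 of 7 higher, and peritubular myoid markers, at 310 to 369 and 309 to 325, had 4 of 6 higher and 1 lower. Epididymal markers were near 0, with at most 4 counts in any library. In RNA of a whole organ, fewer cells of a type and less RNA per cell cannot be told apart, and the part of these marker differences in the values of the 8 genes was not tested.

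The promoters of the called genes *Mfn2* and *Mff* are shown because MLX and its partners are known to bind E-boxes, and because both genes moved in the same direction. Each sequence is the 250 bases before the most upstream start of the curated RefSeq transcripts, in GRCm38.p6 (mm10), on the strand of the gene. Capitals mark TGACG or its reverse complement, the core of the cAMP response element (CRE) that germ cell CREM is known to bind.
*Mfn2* promoter, chr4:147904910-147905159, minus strand: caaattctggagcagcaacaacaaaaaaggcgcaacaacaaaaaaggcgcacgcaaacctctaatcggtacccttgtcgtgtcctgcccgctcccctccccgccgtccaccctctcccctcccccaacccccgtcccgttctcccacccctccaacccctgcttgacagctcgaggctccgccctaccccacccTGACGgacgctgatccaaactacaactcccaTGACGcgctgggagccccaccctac
*Mff* promoter, chr1:82724640-82724889, plus strand: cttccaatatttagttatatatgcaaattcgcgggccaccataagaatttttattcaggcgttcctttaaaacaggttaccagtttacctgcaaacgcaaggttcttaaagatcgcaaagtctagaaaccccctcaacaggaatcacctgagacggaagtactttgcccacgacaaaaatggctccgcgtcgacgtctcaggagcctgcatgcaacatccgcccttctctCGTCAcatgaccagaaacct
The gene coordinates given below span predicted RefSeq transcripts as well, some of which start further upstream, so the windows of *Oma1* and *Yme1l1* lie inside the gene span and those of *Mfn1*, *Opa1* and *Dnm1l* overlap it by 39, 53 and 7 bases. On both strands, the E-box CACGTG was found in 0 of the 8 promoters, against 6.04% of the 27025 promoters of the same length in the RefSeq table, and the full CRE, TGACGTCA, in 0 of 8 against 1.6%. The core TGACG, which is also a part of the full CRE, occurred 2 times before *Mfn2*, and 1 time each before *Mff*, *Mfn1* and *Yme1l1*, and it is present in 17.8% of all promoters. In the main fit, the 4 genes with a core are those with the lowest LFC of the 8, which was noticed after the values were seen. *Mfn1*, at -0.068, was close there to *Fis1*, which has no core, at -0.064. The order did not hold without WT1, where *Fis1* was at -0.16, *Yme1l1* at -0.12 and *Mfn1* at -0.07. It did not hold without KO1 or without KO2 either. Over all genes tested with a promoter in the table, however, 20.3% of the 2807 with a core and 21.0% of the 8480 without one were called lower. These are matches of letters and say nothing about what binds there. Only exact letters in the 250 bases before the start were searched. The study reported MLX occupancy in cultured fibroblasts downstream of the start as well. The 0 of 8 for the E-box therefore does not show that sites for MLX are absent.

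*Mfn2*, at chr4:147873586-147904909 on the minus strand, encodes the mitofusin that also tethers mitochondria to the endoplasmic reticulum. It was the most highly counted of the 8 genes and had the clearest decrease. The WT libraries, numbered 1 to 3, gave 7656, 6669 and 7380 reads, and KO1, KO2 and KO3 gave 7403, 6220 and 6621. Scaled to library size, that is 403.6, 424.1 and 416.1 CPM for WT against 381.9, 344.1 and 350.5 CPM for MLX KO. Every MLX KO library lay below every WT library, although KO1 stood nearer to the WT libraries than to KO2 and KO3. The mean went from 415 ± 10.3 to 359 ± 20.2 CPM (SD, n = 3 each), and fell by 13.4%, with an LFC of -0.21 (SE 0.05, 95% interval -0.32 to -0.09, adjusted p = 0.0078 by edgeR with Benjamini-Hochberg adjustment). It was lower in 3 of 3 pairs, by 0.08, 0.30 and 0.25 on the log2 scale. With each library left out in turn the call held, at adjusted p values up to 0.0448, whereas scaling by library size alone gave -0.07 (adjusted p = 0.145). The study included *Mfn2* in a table of genes that it counts as targets of MLX, MAX or CREM. That table sets factor binding beside the fold change from these same libraries, so the decrease is not independent evidence. Which of the factors was reported at *Mfn2* is not given here.

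*Mfn1*, at chr3:32529443-32579225 on the plus strand, encodes the other mitofusin and gave no call. Its 1713, 1474 and 1570 counts in WT correspond to 90.3, 93.7 and 88.5 CPM, and its 1716, 1520 and 1651 counts in MLX KO to 88.5, 84.1 and 87.4 CPM. The lowest WT library (WT3) and the highest MLX KO library (KO1) were equal to the first decimal. The means were 90.9 ± 2.64 and 86.7 ± 2.30 CPM (SD, n = 3 each), with an LFC of -0.07 (SE 0.05, 95% interval -0.17 to 0.04, adjusted p = 0.272). As a percentage, that interval runs from -11.3% to 2.63%. Scaling by library size alone turned the sign, to an LFC of 0.07.

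*Opa1*, the inner membrane fusion GTPase, lies at chr16:29579281-29663127 on the plus strand and was the steadiest of the 8 genes. The WT libraries gave 1215, 1029 and 1131 counts, or 64.1, 65.4 and 63.8 CPM, and the MLX KO libraries 1230, 1166 and 1233 counts, or 63.4, 64.5 and 65.3 CPM. The genotypes overlapped throughout, with means of 64.4 ± 0.888 and 64.4 ± 0.917 CPM (SD, n = 3 each). The LFC was -0.000103 (SE 0.05, adjusted p = 0.999), with a 95% interval of -0.10 to 0.10, or a change between -6.96% and 7.46%. Under library size alone *Opa1* was called higher instead, at an LFC of 0.14 (adjusted p = 0.0395), which lies below the median of all genes under that scaling.

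**Figure D1:**
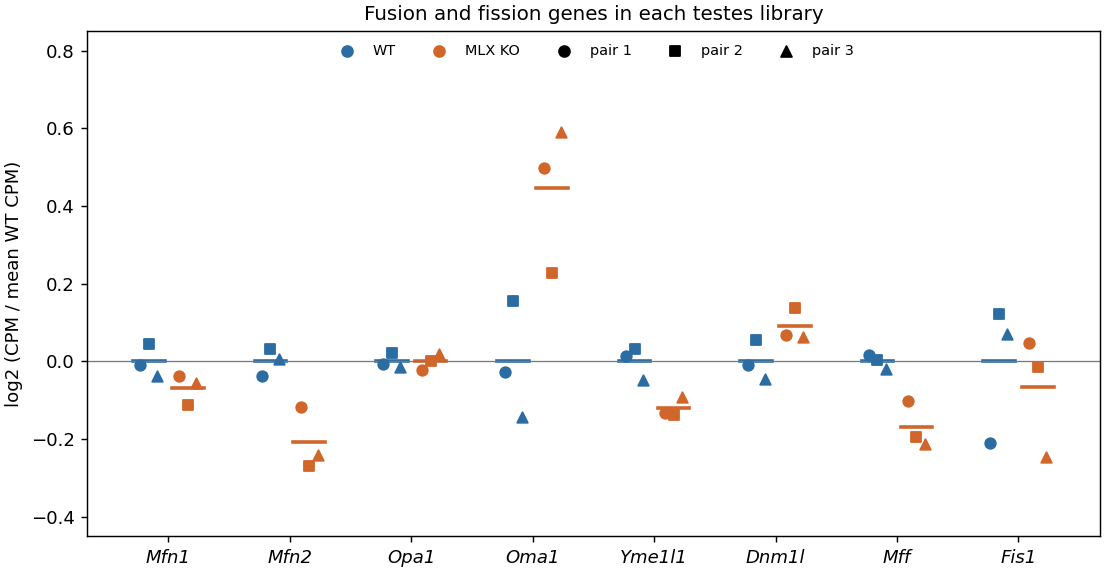
Values of the 8 genes in each testes library, as log2 of CPM over the mean WT CPM of that gene; points are the 6 libraries, with shapes for the pair number and colors for genotype, and bars are group means. *Mfn2*, *Mff* and *Yme1l1* have all 3 MLX KO libraries below the WT libraries, as does *Mfn1*, whose genotypes nearly touch. *Oma1* and *Dnm1l* have all 3 above, and *Opa1* and *Fis1* overlap. With library size alone in place of TMM, *Mfn1*, *Opa1*, *Yme1l1* and *Fis1* change sign.

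The genes for the proteases that cut OPA1 had LFC values of opposite sign, and neither passed the threshold. *Oma1*, at chr4:103311875-103371869 on the plus strand, encodes the stress-activated protease. It was counted sparsely, with 51, 48 and 44 reads in the WT libraries and 75, 58 and 78 in the MLX KO libraries, so that counting error alone is up to ± 29.5% of a library's value at 95%. The corresponding levels were 2.69, 3.05 and 2.48 CPM for WT against 3.87, 3.21 and 4.13 CPM for MLX KO. All MLX KO libraries lay above all WT libraries, with KO2 close to WT2. The means were 2.74 ± 0.289 and 3.74 ± 0.475 CPM (SD, n = 3 each), with an LFC of 0.45 (SE 0.18, 95% interval 0.06 to 0.84, adjusted p = 0.0563), higher in 3 of 3 pairs. *Oma1* had the largest LFC in size of the 8 genes. It passed the threshold without KO2 (LFC 0.55, adjusted p = 0.045) and under library size alone (LFC 0.59, adjusted p = 0.02).

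*Yme1l1*, at chr2:23155442-23199260 on the plus strand, encodes the constitutively active protease. The WT libraries had 4422, 3712 and 3958 counts, or 233.1, 236.0 and 223.2 CPM, and the MLX KO libraries 4082, 3787 and 4092 counts, or 210.6, 209.5 and 216.6 CPM. The genotypes did not overlap, and the MLX KO value was therefore lower in 3 of 3 pairs. The means were 231 ± 6.74 and 212 ± 3.84 CPM (SD, n = 3 each), with an LFC of -0.12 (SE 0.05, 95% interval -0.22 to -0.02, adjusted p = 0.0516). It passed the threshold with DESeq2 (-0.15, adjusted p = 0.0235), with DESeq2's size factors in edgeR (-0.15, adjusted p = 0.0282) and without KO1 (-0.11, adjusted p = 0.0393). It did not pass with the pair as a replicate block in edgeR (adjusted p = 0.109) or in DESeq2 (adjusted p = 0.0833), and under library size alone its LFC was 0.02 (adjusted p = 0.736).

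Among the fission genes, *Dnm1l*, for the GTPase, was not called and *Mff*, for its adaptor, was called lower. *Dnm1l* lies at chr16:16312228-16359038 on the minus strand and was read 2507, 2174 and 2289 times in the WT libraries and 2707, 2646 and 2629 times in the MLX KO libraries. In CPM these are 132.2, 138.2 and 129.1 against 139.6, 146.4 and 139.2. The MLX KO libraries were all above the WT libraries, but KO3 exceeded WT2 by less than the spread within either genotype. The means were 133 ± 4.67 and 142 ± 4.03 CPM (SD, n = 3 each), with an LFC of 0.09 (SE 0.05, 95% interval -0.02 to 0.20, adjusted p = 0.153), and an increase of more than 14.6% lies outside the interval. Under library size alone *Dnm1l* was called higher (LFC 0.23, adjusted p = 0.00278).

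*Mff*, at chr1:82724890-82752390 on the plus strand, encodes the outer membrane adaptor that recruits DRP1. Its counts were 4186, 3440 and 3815 for WT, or 220.7, 218.7 and 215.1 CPM, and 3938, 3444 and 3555 for MLX KO, or 203.1, 190.5 and 188.2 CPM. The WT libraries lay close together and all above the MLX KO libraries, among which KO1 was again the highest. The mean went from 218 ± 2.83 to 194 ± 8.04 CPM (SD, n = 3 each), and fell by 11.1%, with an LFC of -0.17 (SE 0.05, 95% interval -0.28 to -0.06, adjusted p = 0.0137), lower in 3 of 3 pairs. The call was lost without WT1 (LFC -0.16, adjusted p = 0.0508), without KO2 (-0.15, adjusted p = 0.0657), without KO3 (-0.14, adjusted p = 0.0718) and under library size alone (-0.03, adjusted p = 0.517). A transcript on the opposite strand shares 195 exonic bases with *Mff*, and another shares 243 with *Dnm1l*. Neither transcript is a row of the count table, and whether counting used the strand is not given in the sources used here.

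*Fis1*, at chr5:136953275-136966234 on the plus strand, and *Oma1* varied most, relative to their means, among libraries of the same genotype. The *Fis1* counts were 500, 522 and 568 for WT, or 26.4, 33.2 and 32.0 CPM, and 611, 546 and 486 for MLX KO, or 31.5, 30.2 and 25.7 CPM. WT1 and KO3 were the low libraries, the genotypes overlapped, and the pairs disagreed, with 1 higher and 2 lower. The means were 30.5 ± 3.66 and 29.2 ± 3.04 CPM (SD, n = 3 each), with an LFC of -0.06 (SE 0.10, 95% interval -0.29 to 0.16, adjusted p = 0.636). Leaving out KO3 or scaling by library size alone turned its sign, to 0.02 and 0.07.

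The sign of a small LFC depended on the scaling of the libraries. The TMM factors were 0.943 to 0.961 in WT and 1.02 to 1.07 in MLX KO, and without them the median LFC of all genes moved from 0.03 to 0.16, a shift of 0.14 that was shared by all 8 genes. On that scale 3 of the 8 were called higher (*Opa1*, *Dnm1l* and *Oma1*) and 0 lower. Taken relative to the median of all genes, the LFC values hardly differed between the scalings. That follows from the shared shift, which moves the median too, and is no separate support for the values. *Mfn2* lay at -0.23 from that median with TMM and without it, *Mff* at -0.195 and *Yme1l1* at -0.15. *Mfn1* and *Fis1* lay at -0.09, *Opa1* at -0.0251 with TMM and -0.0247 without, *Dnm1l* at 0.07 and *Oma1* at 0.43.

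**Figure D2:**
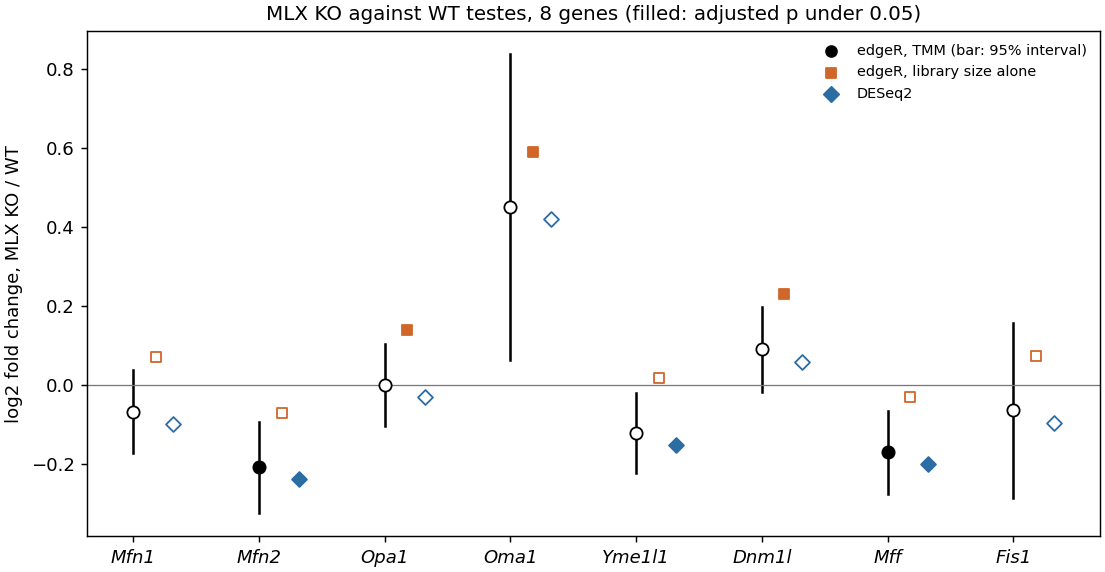
Log2 fold change of MLX KO against WT for each of the 8 genes by edgeR with TMM (circles, with 95% intervals), by edgeR with library size alone (squares) and by DESeq2 (diamonds); filled symbols passed an adjusted p of 0.05. *Mfn2* and *Mff* were called lower with TMM and by DESeq2 but not with library size alone, where the symbols of all 8 genes sit higher by 0.14 and those of *Mfn1*, *Opa1*, *Yme1l1* and *Fis1* are above 0.

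Ratios of counts within a library are free of the scaling, and 3 were formed between genes of related roles. The *Mfn1* to *Mfn2* ratio compares the mitofusins. It was 0.224, 0.221 and 0.213 for the WT libraries and 0.232, 0.244 and 0.249 in KO1, KO2 and KO3. Every MLX KO ratio was above every WT ratio, by 0.14 on the log2 scale, or 1.10-fold, from -2.19 ± 0.0380 to -2.05 ± 0.0544 (log2, SD, n = 3 each). The *Mff* to *Dnm1l* ratio, of adaptor to GTPase, was 1.67, 1.58 and 1.67 for WT against 1.45, 1.30 and 1.35 for MLX KO. It was lower in each MLX KO library than in any WT library, with a log2 difference of -0.26 and a fold of 0.835, from 0.713 ± 0.0440 to 0.452 ± 0.0816 (log2, SD, n = 3 each). The *Oma1* to *Yme1l1* ratio, of the stress-activated to the constitutive protease, was 0.0115, 0.0129 and 0.0111 for WT against 0.0184, 0.0153 and 0.0191 for MLX KO. The genotypes again did not overlap, with a log2 difference of 0.56 and a fold of 1.48, from -6.40 ± 0.114 to -5.84 ± 0.169 (log2, SD, n = 3 each). Each of the 3 ratios moved the same way in 3 of 3 pairs, which the lack of overlap gives whatever the pairing. Each had p = 0.1 in a two-sided exact permutation test, also after Benjamini-Hochberg adjustment over the 3 ratios. That is the smallest p that 3 against 3 libraries allow. A changed ratio says that the genes of a pair changed unequally, not which of them changed.

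**Figure D3:**
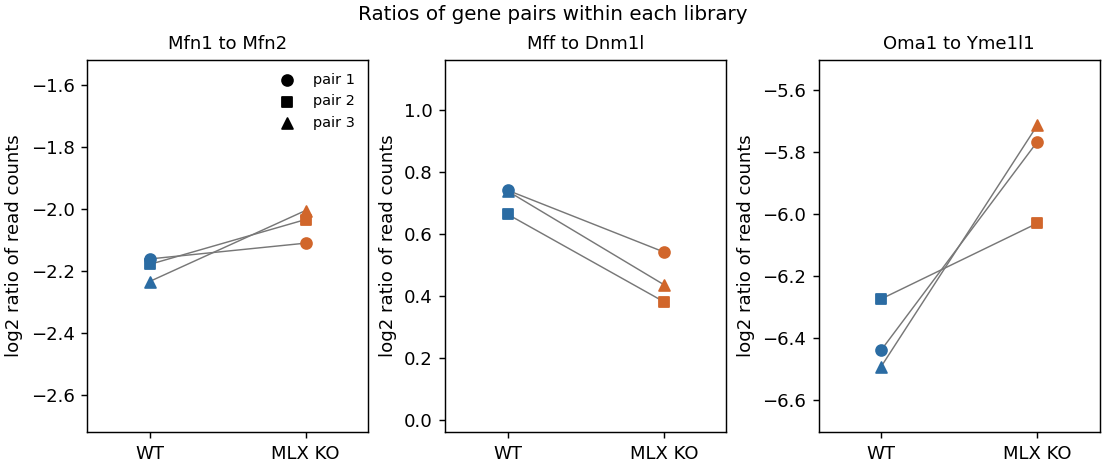
Log2 ratio of read counts within each library for *Mfn1* to *Mfn2*, *Mff* to *Dnm1l* and *Oma1* to *Yme1l1*, with WT and MLX KO libraries of the same pair joined by a line. All 3 lines rise for *Mfn1* to *Mfn2* and *Oma1* to *Yme1l1* and all 3 fall for *Mff* to *Dnm1l*, and the axes have the same span, so the slopes can be compared.

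To compare levels between genes, CPM was divided by the length of the exons in RefSeq transcripts. In WT testes the genes ranked, in CPM per kilobase, as *Mff* 104 ± 1.35, *Mfn2* 85.9 ± 2.13, *Yme1l1* 50.5 ± 1.48, *Dnm1l* 31.2 ± 1.09, *Fis1* 27.7 ± 3.32, *Mfn1* 20.1 ± 0.583, *Opa1* 10.7 ± 0.148 and *Oma1* 1.47 ± 0.155 (SD, n = 3 each). The ranges over the 6 libraries did not overlap between any neighbours in this order, although *Fis1* reached 30.1 in its highest library and *Dnm1l* began at 30.2, so that these neighbours differed by little more than the SD of *Fis1*. The mitofusin genes were thus far apart in level. Among all genes tested, *Mff* stood at percentile 93.7 and *Mfn2* at 92.0 in this measure, and *Oma1* at 25.8. The place of *Mff* rests on the annotation, since its exons cover 2102 bases in RefSeq and 9757 in GENCODE. With GENCODE lengths *Mff* came to 22.4 and fell behind *Mfn2* (79.8), *Yme1l1* (28.8) and *Dnm1l* (25.6), and the other genes kept their order. The order was the same in MLX KO testes, where *Mff* was at 92.3 ± 3.82 and *Mfn2* at 74.3 ± 4.19 CPM per kilobase (SD, n = 3 each).

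**Figure D4:**
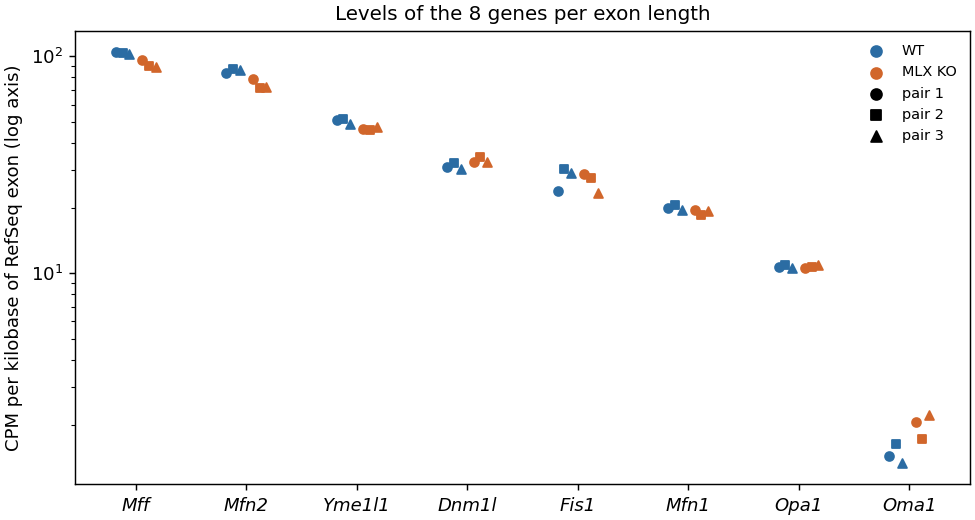
Levels of the 8 genes in CPM per kilobase of RefSeq exon on a log axis, each point being a library, with shapes for the pair number and colors for genotype. *Mff* and *Mfn2* lead and *Oma1* is lowest at 1.33 to 2.21; with GENCODE exon lengths *Mff* would take the fourth place in WT.

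The genes whose log2 CPM followed *Mfn2* most closely over the 6 libraries were *Ropn1l*, a sperm flagellum gene (Pearson r = 0.9994), *Hipk4*, a kinase gene of spermatids (r = 0.9989), and *Mkrn1*, a ring finger ligase gene (r = 0.9988). Their LFC values, -0.21, -0.19 and -0.23, were close to that of *Mfn2*. The points share libraries, depth and the difference between genotypes, and 2271 of the 14639 other genes had an r over 0.9, so such likeness was common.

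Beyond the 8 genes, 64 further genes of mitochondrial dynamics and mass were read in 7 lists, and all were tested. Of these, 15 were higher and 17 lower in MLX KO, which is 23.4% and 26.6%, beside the 24.8% and 20.6% of all genes given above, and their median LFC was -0.01. Library size alone gave 27 higher and 2 lower. Leaving out KO2 brought the number of calls from 32 to 20. Among the genes named from these lists, calls were lost with 1 library left out for *Mief2* (WT1, WT2, KO2 or KO3), *Mtfr2* (WT1, WT3, KO2 or KO3), *Dnm2*, *Tomm22* (both WT2, WT3, KO2 or KO3), *Timm44* (WT1, WT2, KO2 or KO3), *Phb2* (any WT library or KO2), *Myo19* (any library but KO1) and *Pink1* (WT2 or KO2), with adjusted p values up to 0.17.

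Among 12 fission regulators, 2 rose and 3 fell, beside the 24.8% of all genes tested called higher and the 20.6% called lower. With library size alone 4 were higher and 0 lower, and the same counts held for the 7 fusion regulators. *Inf2*, the formin that polymerizes actin at sites of division, had the largest rise in these lists, from 1.95 ± 0.568 to 6.27 ± 0.429 CPM (LFC 1.68, SE 0.20, adjusted p = 8.06e-05). *Mief2*, a DRP1 receptor gene, rose by an LFC of 0.50 (adjusted p = 0.029), a call that DESeq2 did not give (adjusted p = 0.0504). *Mtfr2*, *Mtfr1* and *Dnm2* fell, with LFC values of -0.29, -0.25 and -0.15 (adjusted p = 0.0425, 0.00503 and 0.0311), and the *Dnm2* call was lost with the pair as a replicate block in edgeR (adjusted p = 0.0589). Among 7 fusion regulators, *Fam73b*, the older symbol of *Miga2*, rose from 7.99 ± 0.751 to 14.3 ± 1.74 CPM (LFC 0.84, adjusted p = 0.000284). *Stoml2*, a partner of the prohibitins, rose by 0.53 (adjusted p = 0.0033). *Pld6*, which encodes the mitochondrial phospholipase of germ cells that also acts in the piRNA pathway, fell from 63.4 ± 3.15 to 54.2 ± 1.07 CPM (LFC -0.23, adjusted p = 0.00617).

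Of 7 genes for inner membrane proteases and prohibitins, *Phb2* rose (LFC 0.16, adjusted p = 0.0271), which DESeq2 with the pair as a replicate block did not call (adjusted p = 0.331), and *Spg7* fell (LFC -0.20, adjusted p = 0.00768). With library size alone 2 of these 7 were higher and 0 lower. Of 11 MICOS and cristae genes, 0 were higher and 4 lower with TMM, beside the 20.6% of all genes called lower, and 2 were higher and 0 lower with library size alone. *Chchd3* and *Chchd6*, MICOS subunit genes, and *Mtx1*, a partner of that complex in the outer membrane, had LFC values of -0.25, -0.24 and -0.25. Library size alone left -0.11, -0.10 and -0.11 in the same order, without a call.

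Mitophagy genes were called both ways with TMM, with 2 of 6 higher and 2 lower, beside 24.8% and 20.6% of all genes tested. With library size alone 4 were higher and 1 lower. The receptor genes *Bnip3* and *Fundc1* rose, *Bnip3* from 14.4 ± 0.812 to 24.9 ± 2.11 CPM (LFC 0.79, adjusted p = 6.46e-05) and *Fundc1* from 3.94 ± 0.241 to 6.87 ± 0.523 CPM (LFC 0.80, adjusted p = 0.000752). *Pink1* and *Park2*, the kinase and ligase of the PINK1 and parkin pathway, which also removes mitofusins, fell with LFC values of -0.19 and -0.57 (adjusted p = 0.0108 and 0.00357). *Park2* was called lower under library size alone as well (LFC -0.43, adjusted p = 0.0174). Of 7 transport genes, *Armcx3*, *Kif5b* and *Trak2* rose, by 0.78, 0.63 and 0.58, and *Myo19* fell, by an LFC of -0.17 (adjusted p = 0.030). With library size alone 5 of the 7 were higher and 0 lower.

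In a list for mitochondrial mass, 14 genes for import, outer membrane pores, matrix chaperones and nucleoids gave 5 higher and 5 lower, with a median LFC of -0.04. Of all genes tested, 24.8% were higher and 20.6% lower. Mitochondrial content itself was not measured here, and RNA of whole testes does not give it. *Vdac1*, an outer membrane pore gene, rose from a mean of 26.0 to 43.2 CPM (n = 3 each, LFC 0.73, SE 0.09, adjusted p = 7.92e-05 by edgeR), the chaperone gene *Hspd1* rose by 0.58, and *Cs*, for citrate synthase, by 0.22. *Tfam*, which encodes the factor that packs and transcribes mitochondrial DNA, fell from 183 ± 6.71 to 139 ± 8.96 CPM (LFC -0.40, adjusted p = 0.00027) and was lower under library size alone too (LFC -0.26, adjusted p = 0.00167). *Tfam* is another gene of the study's table of MLX, MAX or CREM targets, and its factor is not given here either. *Tomm22* and *Timm44*, import genes, fell, with LFC values of -0.22 and -0.20 (adjusted p = 0.0235 and 0.0332). Of the 14 genes named here as lower, 12 lost their call under library size alone, and *Park2* and *Tfam* kept it.

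**Figure D5:**
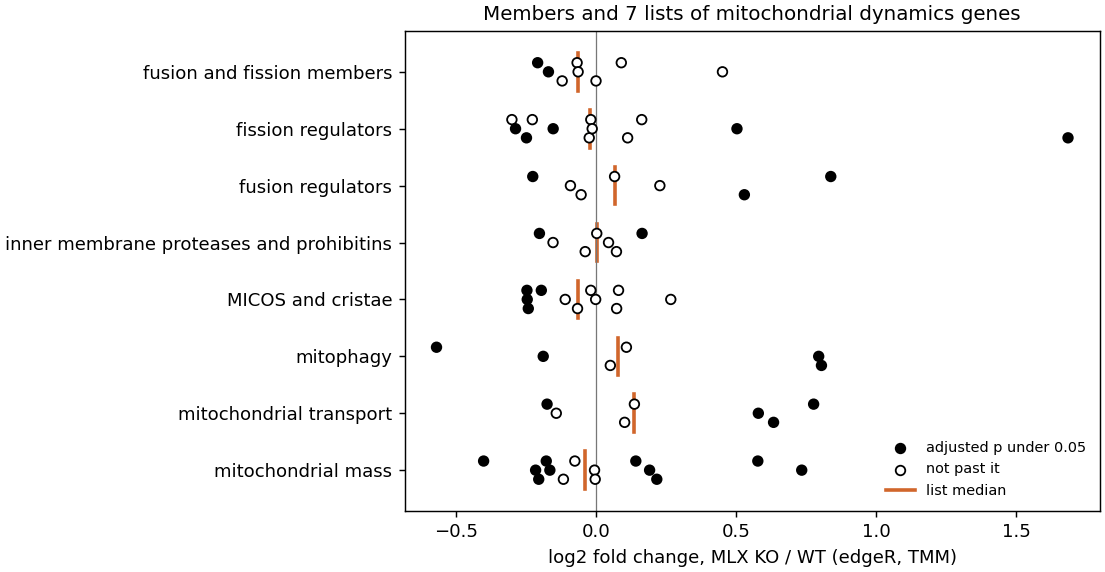
Log2 fold change of MLX KO against WT by edgeR with TMM for the 8 fusion and fission genes and for each gene of the 7 further lists; filled circles passed an adjusted p of 0.05, open circles did not, and bars mark list medians. The 8 genes lie within 0.21 of 0 except *Oma1*, while single genes of other lists reach 1.68; with library size alone the points shift up by 0.14 and 2 of the 64 list genes stay called lower.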

How the data were processed

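RNA from 3 WT and 3 MLX KO testes was sequenced in paired-end reads, and the authors deposited 1 table of raw read counts per gene symbol and library, aligned to mm10 with TopHat. The counting tool, annotation and strand use are not given in the sources used here. The submitters' processing notes also name bcl2fastq 1.8.4, Bowtie2, DESeq2 and bedtools. Other columns that the authors deposited give their comparison of the genotypes (mean signal, log2 fold change and its standard error, test score, p-value and adjusted p-value), which was not used. The ChIP-Seq samples were not analysed here.

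Of 17933 rows, 2 were repeats. Counts were tested in edgeR 4.0.16 (R 4.3.3) with TMM, the filter on low counts at its minimum of 10, and genotype as the only term; SE was derived from the fold change and F. Exon lengths and promoters come from curated and gene coordinates from all RefSeq transcripts (GRCm38.p6), and 99.8% of symbols had a length. CPM uses TMM library sizes. The 8 genes and all lists were chosen with earlier results of these data known. List genes were named if they passed the threshold with the largest absolute LFC, up to 3 per direction and list, and the 3 genes most correlated with *Mfn2* were added. Same-genotype libraries differed by more than sampling noise (chi-square over its degrees of freedom, 2.73 to 8.26). The study worked with littermates and the titles number them as pairs, so the numbers were taken as pairs, with the block as an alternative. Deviations from group means correlated at 0.145, 0.0363 and 0.121 for the same number and at most 0.0330 otherwise. These correlations are weak and depend on each other, since deviations from a group mean sum to 0, so they cannot decide the pairing. Alternatives were DESeq2 1.42.0, other scalings and filters, the block in both tools, and each library left out. Code was tested on simulated data.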

Additional observations from a re-analysis of the deposited data

How the results depend on the processing

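Over the alternatives, 91 of 112 values of the 8 genes kept their direction and side of the threshold. Of the others, 10 changed sign, 6 newly passed and 5 no longer passed. For the named list genes, 324 of 378 values kept their direction and side. All 21 values of the ratios kept their direction. Their side of the threshold was fixed beforehand, since so few libraries let no ratio pass it under any setting. Scaling by library size alone gave LFC values of 0.0716 for *Mfn1*, -0.0697 for *Mfn2*, 0.14 for *Opa1*, 0.23 for *Dnm1l*, 0.0744 for *Fis1*, -0.0312 for *Mff*, 0.59 for *Oma1* and 0.0189 for *Yme1l1*, and by its construction moved all genes up. *Opa1* was 0.0057 with upper-quartile factors and 0.0038 with the 1 CPM filter, and *Yme1l1* was -0.15 with DESeq2 and with its size factors (-0.1512 and -0.1468); the cause was not tested. With each library left out, LFC ranged from -0.09 to -0.04 for *Mfn1*, -0.25 to -0.17 for *Mfn2*, -0.0093 to 0.0138 for *Opa1*, 0.07 to 0.12 for *Dnm1l*, -0.16 to 0.0248 for *Fis1*, -0.20 to -0.14 for *Mff*, 0.38 to 0.55 for *Oma1* and -0.15 to -0.11 for *Yme1l1*. The number of the 8 genes called ranged from 1 (without WT1 or without KO3) to 3, of the 64 list genes from 20 to 37, and of all genes from 5130 to 7395; the highest counts were those without KO1 (3 of the 8 genes, 37 and 7395), and the cause was not tested. Of the list genes named, 8 lost their call without KO2, 7 without WT2, 6 without KO3, and 5 each without WT1 and without WT3.

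With the pair number as a replicate block, *Mfn2* was at -0.21 (adjusted p = 0.016) and *Mff* at -0.17 (adjusted p = 0.0254) in edgeR. Both tools with the block called the same 2 of the 8 genes as the main fit. Within DESeq2, however, the block removed the call of *Yme1l1* (adjusted p = 0.0235 without it and 0.0833 with it). Among the list genes named, the block removed the call of *Dnm2* in edgeR, and DESeq2 with the block did not call *Mief2*, *Mtfr2*, *Phb2*, *Myo19* and *Cs*, of which DESeq2 without it also missed the first 4. DESeq2 with the block called 4579 genes, 2193 higher and 2386 lower, and without it 5766, 2792 higher and 2974 lower. In edgeR the block gave 3736 higher and 3007 lower, against 3634 and 3015 in the main fit without it. Scaling by library size alone in edgeR, without the block, gave 5343 higher and 1268 lower. For the ratios, the exact sign-flip permutation test within the pairs gave p = 0.25, the smallest that 3 pairs allow. Counting error limits *Oma1* most, at 44 to 78 counts a library.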
